A study of Homo sapiens with 2 samples.

Results

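OTX2 binding at the promoters of long noncoding RNA (lncRNA) genes was examined in D283 tumorspheres. The peaks described here were chosen by position alone: they lie on chromosomes 1 to 22, their summit falls within 1 kb of the start of a lncRNA gene, and the summit is more than 5 kb from every protein-coding gene start. Gene starts are the 5′ ends of GENCODE gene records in GRCh38. This rule was met by 2184 of the 137412 OTX2 peaks (1.59%), and by 2184 of the 133985 peaks on the autosomes. The 2184 peaks lie within 1 kb of the starts of 2151 lncRNA genes, of which 756 have an official symbol and 1395 are known only by an identifier. The name promoter peak stands below for this position alone, and a gene called bound is one with such a peak.

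OTX2 is a homeodomain transcription factor of the bicoid class that patterns the forebrain and midbrain and the retina, and it is highly expressed in Group 3 and Group 4 medulloblastoma (MB). It recognises DNA with the core TAATCC, and the related TAATCT is also read. lncRNAs are in general transcribed by RNA polymerase II, are often but not always spliced and capped as mRNAs are, and do not encode a known protein. Some act in the nucleus on chromatin or RNA processing, some are hosts from whose introns or exons microRNAs or small nucleolar RNAs (snoRNAs) are cut, and for most no function is known. Many of their starts lie beside a protein-coding promoter, which is why starts close to such a promoter were set aside here.

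D283 is an established MB cell line that the study describes as having traits of Group 3 and of Group 4. The tumorspheres were grown without adherence and are OTX2-expressing controls for which the labels give no treatment. The study uses scramble siRNA cells as OTX2-expressing controls elsewhere, so whether these cells received scramble siRNA is not known. One OTX2 ChIP library (anti-OTX2 antibody) was compared with 1 input library (no antibody) of the same cells, so that replicate error is unknown and no test between conditions could be made. The ChIP library kept 61259377 of 84980793 fragments after duplicate removal and the input library 22521186 of 32292980. Fold enrichment is the authors' ratio of ChIP to local input at the summit, and a fold of at least 10 is used below as the mark of a strong peak. Intervals are 95% intervals (Wilson for shares, order statistics for medians, Poisson for fragments) and cover counting error only. A ChIP fragment carries no strand, so a peak cannot be assigned to the lncRNA rather than to a gene on the other strand or around it.

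The DNA under some of the summits is shown first, since motif content and fold went together where the sequence could be read. The following sequences are 101 bases centred on the summit, read 5′ to 3′ on the strand of the lncRNA from RefSeq promoters (GRCh38.p14), with TAATCC or TAATCT on either strand in capitals (GGATTA and AGATTA are the same motifs on the other strand). They come from 7 strongly bound promoters and were chosen after their values were seen.
RBM5-AS1 (chr3:50101074-50101174, minus strand): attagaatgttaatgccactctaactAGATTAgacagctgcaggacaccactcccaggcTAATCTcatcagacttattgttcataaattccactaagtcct
FAM138A (chr1:36084-36184, minus strand): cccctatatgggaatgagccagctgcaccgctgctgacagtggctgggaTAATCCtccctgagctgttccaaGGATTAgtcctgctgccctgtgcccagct
LINC02275 (chr4:169975956-169976056, minus strand): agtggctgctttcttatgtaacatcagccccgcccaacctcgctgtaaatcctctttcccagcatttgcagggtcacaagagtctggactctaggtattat
RASSF3-DT (chr12:64609541-64609641, minus strand): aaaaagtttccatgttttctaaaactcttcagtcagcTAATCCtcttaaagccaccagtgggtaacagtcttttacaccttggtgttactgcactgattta
CREB3L2-AS1 (chr7:137953200-137953300, plus strand): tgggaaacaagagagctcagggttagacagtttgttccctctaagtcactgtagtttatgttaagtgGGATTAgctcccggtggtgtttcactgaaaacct
LINC02344 (chr13:33335224-33335324, minus strand): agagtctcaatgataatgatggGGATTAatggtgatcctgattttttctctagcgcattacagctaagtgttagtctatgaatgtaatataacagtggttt
LINC02323 (chr14:102545106-102545206, plus strand): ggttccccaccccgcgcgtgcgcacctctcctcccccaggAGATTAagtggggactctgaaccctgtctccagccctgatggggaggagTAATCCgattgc
Their fold enrichments were 47.2 at RBM5-AS1, 37.5 at FAM138A, 25.9 at LINC02275, 22.4 at RASSF3-DT, 21.4 at CREB3L2-AS1, 20.4 at LINC02344 and 19.2 at LINC02323. The window of LINC02275 holds 0 motifs and each of the other 6 holds 1 or 2. The next 4 windows are from well-known lncRNAs and host genes with a promoter peak and hold 0 motifs.
SNHG21 (chr15:82750481-82750581, plus strand): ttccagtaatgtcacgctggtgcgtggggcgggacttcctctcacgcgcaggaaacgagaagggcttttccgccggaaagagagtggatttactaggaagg
MIR1915HG (chr10:21497389-21497489, minus strand): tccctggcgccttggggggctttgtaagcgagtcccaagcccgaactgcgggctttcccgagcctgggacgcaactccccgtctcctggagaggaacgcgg
MALAT1 (chr11:65497503-65497603, plus strand): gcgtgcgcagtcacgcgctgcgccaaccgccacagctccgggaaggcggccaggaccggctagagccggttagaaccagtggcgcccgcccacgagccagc
DANCR (chr4:52712184-52712284, plus strand): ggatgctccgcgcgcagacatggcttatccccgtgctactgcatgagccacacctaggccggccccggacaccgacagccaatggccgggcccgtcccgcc
Here the fold was 17.9 at SNHG21, 10.1 at MIR1915HG, 3.95 at MALAT1 and 6.25 at DANCR. The window of MALAT1 was 73.3% G and C, against 39.6% for that of RBM5-AS1. Windows with 2 motifs could also be rich in G and C, at 58.4% for FAM138A and 63.4% for LINC02323.

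The lncRNA promoter peaks had a median fold enrichment of 5.80 (interval 5.60 to 6.03), with the middle 50% between 4.03 and 9.39 and a range from 1.98 to 55.8. A fold of at least 10 was reached by 499 peaks, 22.8% (21.1% to 24.7%), while the share over all autosomal peaks was 26.3%. Strong peaks were thus a smaller share here than in the list as a whole. Peaks within 1 kb of a protein-coding start were weaker, with a median fold of 5.25 (5.21 to 5.34) and 13.9% (13.2% to 14.7%) at a fold of at least 10. The remaining peaks more than 5 kb from every protein-coding start, called distal below, were stronger, with a median of 6.25 (6.24 to 6.26) and 27.8% at that fold. lncRNA promoter peaks lay between these groups, and the intervals of the 3 groups do not overlap. At a fold of at least 20 the order was the same, with 120 lncRNA promoter peaks (5.49%, 4.61% to 6.53%) against 1.85% of coding promoter peaks and 7.33% of distal peaks. A fold of 30 or more was reached by 20 of the 2184.

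**Figure D1:**
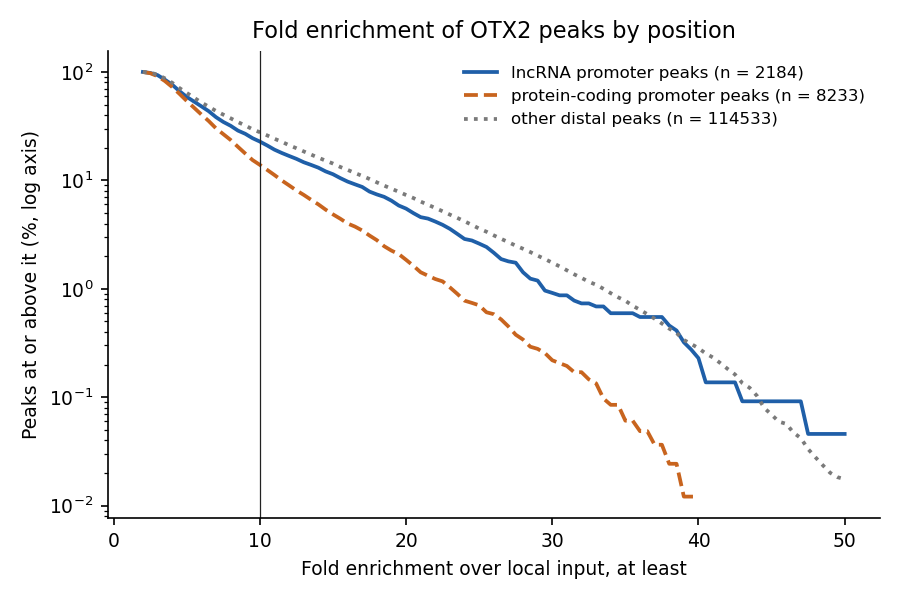
Share of peaks (%, log axis) at or above each fold enrichment over local input, for 2184 lncRNA promoter peaks, 8233 protein-coding promoter peaks and 114533 other distal peaks. The vertical line marks a fold of 10, where the shares are 22.8%, 13.9% and 27.8%, with the lncRNA promoters between the other groups.

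The median summit was covered by 50 ChIP fragments (range 16 to 415), against 45 at coding promoters and 55 at distal peaks. The local input at the summit had a median of 5.0 in all 3 groups, and 26.5% of lncRNA promoter peaks had a local input at its floor of 3.98, where the fold is set by the ChIP library and the genome-wide input level. The groups thus differed in ChIP fragments and hardly in the local input. Peaks were also intermediate in width, with a median length of 464 bp at lncRNA promoters, 526 bp at coding promoters and 436 bp elsewhere, and 12.0%, 15.1% and 7.61% were at least 1 kb long. Inside a protein-coding gene lay 34.3% (32.4% to 36.4%) of lncRNA promoter peaks, against 51.9% of distal peaks. Of these 750 peaks, 586 belonged to a lncRNA antisense to the gene around it, 150 to one on the same strand and 14 lay inside coding genes on both strands. These shares depend on where lncRNA genes are annotated, since the peaks were chosen by lncRNA starts. The same shares over lncRNA starts without a peak were not counted. Median folds were 5.91 (antisense), 5.44 (same strand) and 5.80 (outside coding genes), with overlapping intervals. The 14 peaks inside coding genes on both strands had a median of 7.96 with a wide interval (3.69 to 11.2). Of 2060 peaks off chromosome 8, where RefSeq starts could be compared, 209 (10.1%) lay within 5 kb of a protein-coding start in RefSeq.

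How many lncRNA genes carried such a peak was counted over the 13817 autosomal lncRNA genes whose start is more than 6 kb from every protein-coding start, so that each of their summits within 1 kb would meet the rule. A peak was found at 2107 of them, 15.2% (14.7% to 15.9%), and at 8532 of 18978 protein-coding genes (45.0%, 44.3% to 45.7%). Summits were denser at lncRNA starts than in all other autosomal positions more than 5 kb from every protein-coding start. Within 1 kb of a lncRNA start there were 80.2 summits per Mb (27.2 Mb in all). In the other 2607 Mb away from coding starts there were 43.9 per Mb, a ratio of 1.83 (1.75 to 1.90). At the second density many of the 2184 peaks would be there without any excess at lncRNA starts. Which ones these are cannot be told. The excess was highest next to the start and narrower upstream than downstream. Among 12941 lncRNA starts over 10 kb from a coding start, the 100 bp just upstream of the start held 18.9 summits per 1000 starts, 3.75 times the mean of 5.03 per bin at 3 to 5 kb. At coding starts the same bin held 96.1 per 1000 starts, 15.8 times its outer mean of 6.08. In both, the bin with the most summits was the one directly upstream of the start. At 500 to 600 bp upstream the lncRNA profile was down to 6.65 per 1000, against 15.2 at coding starts. At 900 to 1000 bp it was 5.49 per 1000 lncRNA starts upstream and 7.34 downstream.

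**Figure D2:**
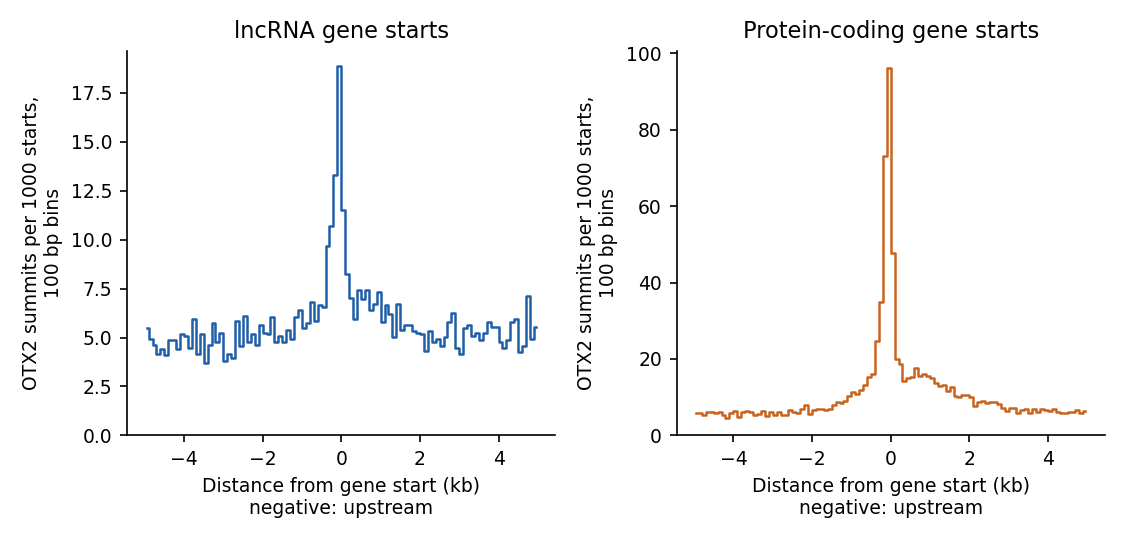
OTX2 summits per 1000 gene starts in 100 bp bins against the distance from the start in kb (negative is upstream), for 12941 lncRNA starts and 18978 protein-coding starts, on separate vertical axes. Both profiles are highest in the bin just upstream of the start, at 18.9 and 96.1 summits per 1000 starts.

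The share of genes with a peak differed among lncRNA classes, here read from the gene symbols. It was highest for snoRNA host genes, of which 12 of 17 (70.6%, 46.9% to 86.7%) had a promoter peak, and for divergent transcripts (-DT), of which 13 of 27 (48.1%, 30.7% to 66.0%) had one. The symbol -DT stands for a transcript that starts near a coding promoter and runs away from it, and 553 further -DT genes were set aside for that reason. The 27 counted start over 6 kb from the 5′ end of every coding gene record, but a coding promoter inside a gene is not covered by this rule. The summits of RASSF3-DT and CDR2-DT lay inside RASSF3 and CDR2, 103 kb and 63.2 kb from their gene starts. Whether a coding transcript starts near these -DT genes was not tested. microRNA hosts had a peak in 18 of 65 cases (27.7%) and genes with other official symbols in 150 of 556 (27.0%). Antisense genes (-AS) followed with 198 of 996 (19.9%), intergenic LINC genes with 342 of 2069 (16.5%) and genes without an official symbol with 1361 of 9968 (13.7%). Intronic genes (-IT) were lowest among classes with more than 9 genes, with 12 of 110 (10.9%), and 1 of 9 -OT genes had a peak. For snoRNA hosts, -DT, microRNA hosts, other official symbols and -AS the interval lies above the 15.2% of all genes counted. For genes without an official symbol it lies below.

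**Figure D3:**
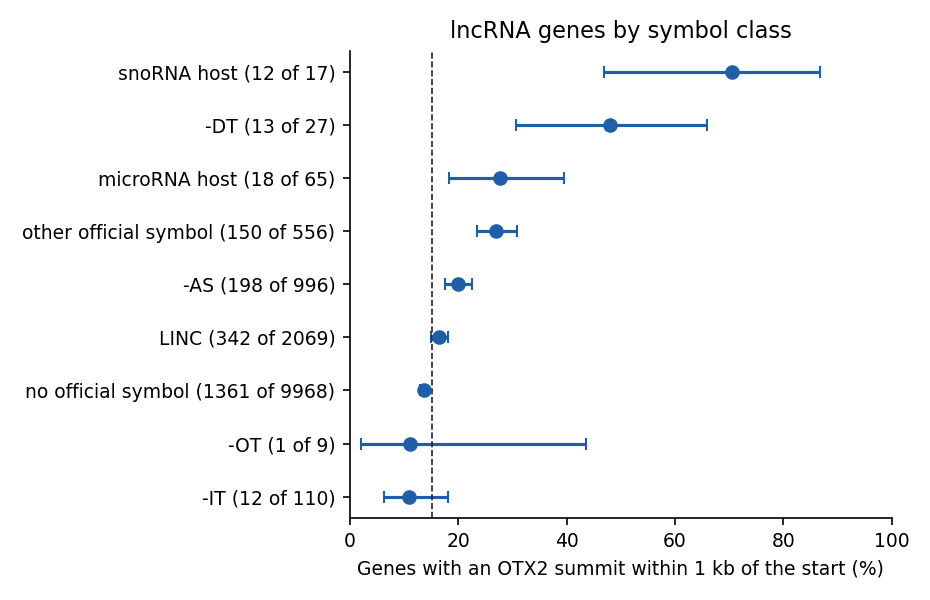
Share (%) of lncRNA genes over 6 kb from every protein-coding start that had an OTX2 summit within 1 kb of their start, by symbol class, with Wilson 95% intervals and the counts beside each class. The dashed line is the 15.2% of all 13817 genes, and snoRNA hosts are farthest above it at 70.6%.

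Classes bound more often were not in general bound more strongly. With each peak counted for its nearest lncRNA start, 91 of 337 LINC peaks (27.0%, 22.5% to 32.0%) and 4 of 15 -DT peaks (26.7%, 10.9% to 52.0%) had a fold of at least 10, against 41 of 218 for -AS (18.8%), 21 of 149 for other official symbols (14.1%), 1 of 12 for snoRNA hosts and 1 of 19 for microRNA hosts. Share and fold also ran apart with the number of annotated transcripts, a rough measure of how well a lncRNA is documented. A peak was present at 13.2% of genes with 1 transcript, 17.7% with 2 to 5, 23.0% with 6 to 20 and 26.2% with more than 20, while the median of the genes' highest folds was 6.17, 6.15, 5.58 and 5.09. With distance from the nearest coding start the share fell, from 16.9% at 6 to 20 kb to 10.9% at over 500 kb. Peaks more than 200 kb from a coding start were the stronger ones, with a median fold of 6.59 (6.25 to 7.04) and 31.0% (26.8% to 35.6%) at a fold of at least 10, against 18.0% (13.2% to 24.1%) at 5 to 10 kb. Summits that lay within 1 kb of at least 2 lncRNA starts numbered 144, with 13.9% (9.17% to 20.5%) at that fold, and 119 of these had starts on both strands. Across chromosomes the share of genes with a peak was highest on chromosome 3 (20.6%) and chromosome 9 (20.1%) and lowest on chromosomes 21 (8.99%), 20 (10.4%) and 7 (11.0%).

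Within the 1 kb window, fold hardly varied with the distance of the summit from the start. The median was 5.71 within 100 bp, 6.15 at 100 to 250 bp, 5.36 at 250 to 500 bp, 5.80 at 500 to 750 bp and 5.97 at 750 to 1000 bp. Upstream summits numbered 1180 and downstream summits 1002, with medians of 5.81 and 5.79. The 167 peaks just inside the edge (900 to 1000 bp) had a median fold of 6.54 and the 160 peaks just outside it (1000 to 1100 bp) one of 5.64. Most genes (1969) had 1 peak, 179 had 2 and 3 had 3. One of these 3, CHASERR, is a conserved lncRNA that limits the expression of its neighbour CHD2, a chromatin remodeller mutated in epilepsy. Its start on chromosome 15 was flanked by folds of 5.42 (858 bp upstream), 6.51 (175 bp downstream) and 3.15 (956 bp downstream). The other with a symbol, LINC01356, had a fold of 25.3 at a summit 42 bp downstream of the start and folds of 4.18 and 4.48 at 825 bp upstream and 852 bp downstream. The third gene, without an official symbol (chr17:30600796-30615980), had folds of 2.84 (860 bp upstream), 2.97 (264 bp upstream) and 6.45 (516 bp downstream). The summit nearest the start was thus the strongest at CHASERR and LINC01356 and not at the third gene.

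Among genes with an official symbol the strongest promoter peak was at RBM5-AS1, which runs antisense inside RBM5, the gene of an RNA-binding splicing regulator. The peak (chr3:50100313-50101932) was 1620 bp long with its summit 136 bp upstream of the RBM5-AS1 start and 12.2 kb from the RBM5 start, had 363 fragments (327 to 402) and a fold of 47.2. It was followed by 3 intergenic genes. LINC02380 on chromosome 4 had 289 fragments and a fold of 42.8 at 153 bp upstream, LINC02904 on chromosome 8 had 272 fragments and a fold of 40.3 at 190 bp upstream, and LINC02120 on chromosome 5 had 340 fragments and a fold of 37.9 at 519 bp downstream. The local input of these 4 was 3.99 to 5.62, so the folds rest on the ChIP library. Further down came LINC00323 (29.3), SIM1-AS1 (29.2), LINC01871 (27.7), LINC01960 (27.5), LINC00052 (26.7), LINC02058 (26.5) and LASTR (26.2). SIM1-AS1 lies inside SIM1, the gene of a hypothalamic transcription factor, with its summit 105 bp upstream of the lncRNA start and 37.9 kb from the SIM1 start. High folds were not confined to genes with a symbol, and 30 peaks at genes without an official symbol exceeded the fold of LASTR. The highest of all, 55.8 with 394 fragments, lay 128 bp upstream of an unnamed lncRNA (chr16:31065495-31069246) inside ZNF668, the gene of a zinc finger protein. The next 4 without a symbol had folds of 40.4 on chromosome 11 (298 fragments, 418 bp upstream), 39.7 on chromosome 10 (323 fragments, 345 bp downstream), 39.1 on chromosome 4 (276 fragments, 695 bp downstream) and 39.0 on chromosome 15 (263 fragments, 27 bp downstream).

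The other 4 genes among the 15 strongest were FAM138A, FAM138B, FAM138F and FAM138E, copies of 1 lncRNA near chromosome ends or an ancestral chromosome end. Fold was 37.5 at FAM138A on chromosome 1, 31.8 at FAM138B on chromosome 2, 31.4 at FAM138F on chromosome 19, 27.6 at FAM138E on chromosome 15 and 22.5 at FAM138D on chromosome 12. FAM138C on chromosome 9 had a fold of 38.6, but its GENCODE record starts 1355 bp from the summit, so it is no member. All 6 summits lay 38 to 53 bp upstream of the RefSeq start, with 304 to 361 fragments. The RefSeq promoters of the 6 copies (300 bases) were 99.0% to 100% identical to that of FAM138A, and each had 3 TAATCC. Reads from near-identical copies cannot be placed with certainty, so how the fragments divide among the copies is not known, and the 5 members are not 5 independent peaks. Local input was 5.85 to 9.0 at the 5 members, above the floor.

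Among lncRNAs known from neural cells, 27 were listed, of which 13 were lncRNA genes far enough from a coding start and 4 of these had a promoter peak (30.8%, 12.7% to 57.6%). MIAT, a lncRNA of retina and brain, had 44 fragments and a fold of 6.69 at 962 bp upstream. MIR9-1HG, the host of miR-9, had 50 fragments and a fold of 4.20 at 516 bp upstream. NEAT1, the scaffold of nuclear paraspeckles, had 33 fragments and a fold of 5.07 at 411 bp upstream. MALAT1, a lncRNA of nuclear speckles, had 2 peaks, with 47 fragments and a fold of 3.95 at 87 bp upstream and 46 fragments and a fold of 3.48 at 681 bp upstream. Of these peaks only that of MIAT lay above the median fold of 5.80, and 0 reached a fold of 10. Another 12 listed genes start near a protein-coding start and could not enter, 9 eligible genes had no promoter peak, 1 is annotated as coding and 1 was not found in the annotation under its symbol. OTX2-AS1 is among those left out, since its start lies 3510 bp from a coding start. A summit 131 bp upstream of it had 182 fragments. Among the 9 eligible genes without a promoter peak, the nearest summit had a fold of 14.5 at NBAT1 (1.05 kb upstream). It had 12.1 at MIR124-2HG (1.77 kb downstream) and 15.8 at RMST (2.79 kb upstream). Lower folds were found at MIR124-1HG (5.98, 1.89 kb downstream) and MIR9-3HG (5.93, 2.79 kb upstream). At the other genes the nearest summit lay 10.6 kb or more away. That 0 peaks reached a fold of 10 thus holds only within the 1 kb window.

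Among 23 listed lncRNAs named in cancer, 13 could be counted and 4 had a promoter peak (30.8%, 12.7% to 57.6%). DANCR, which is expressed in progenitor cells, had 41 fragments and a fold of 6.25 at 91 bp upstream. KCNQ1OT1, the imprinted antisense lncRNA inside KCNQ1, had 30 fragments and a fold of 4.62 at 98 bp upstream. MIR17HG, the host of the oncogenic miR-17 to miR-92 cluster, had 50 fragments and a fold of 3.78 at 346 bp upstream. PVT1, a lncRNA of a region often amplified in MB, had 32 fragments and a fold of 3.25 at 954 bp downstream. Of the 4, only DANCR lay above the median fold of lncRNA promoter peaks, 5.80, and 0 reached 10. The share of each list with a peak is given on 13 genes, and its interval holds the 15.2% of all lncRNA genes counted.

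Host genes of microRNAs had a promoter peak in 18 of 65 cases, with highest folds per gene from 2.62 to 10.1 and a median of 4.60. The strongest were MIR1915HG (10.1, 67 fragments, 179 bp upstream), MIR181A1HG (9.91, 154 fragments, 90 bp upstream) and MIR137HG (8.75, 58 fragments, 850 bp downstream, and 8.21, 60 fragments, 506 bp upstream). MIR181A1HG had by far the most fragments of these, over a local input of 10.5. Lower folds were found at MIR378D2HG (6.75), MIR7-3HG (6.55), MIR762HG (6.54), MIR4300HG (5.36), MIRLET7A1HG (4.94), MIRLET7IHG (4.72), MIR5689HG (4.48), MIR130AHG (4.26), MIR181A2HG (3.75), MIRLET7BHG (3.74), MIR924HG (3.44), MIR3142HG (2.97) and MIR193BHG (2.62). The remaining hosts, MIR9-1HG and MIR17HG, were given above. Hosts of the same microRNA family recur in this set, and RefSeq mature sequences of them are shown with the seed (bases 2 to 8) in capitals.
hsa-let-7a-5p: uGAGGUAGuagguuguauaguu
hsa-let-7i-5p: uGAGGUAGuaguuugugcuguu
hsa-miR-181a-5p: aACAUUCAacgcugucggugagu
hsa-miR-181b-5p: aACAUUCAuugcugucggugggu
hsa-miR-17-5p: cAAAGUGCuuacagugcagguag
hsa-miR-20a-5p: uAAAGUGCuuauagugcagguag
hsa-miR-9-5p: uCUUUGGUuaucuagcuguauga
hsa-miR-137-3p: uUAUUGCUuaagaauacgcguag
The let-7 seed GAGGUAG is carried by microRNAs of MIRLET7A1HG, MIRLET7BHG and MIRLET7IHG, whose promoter peaks had folds of 4.94, 3.74 and 4.72. The miR-181 seed ACAUUCA is carried by those of MIR181A1HG and MIR181A2HG, with folds of 9.91 and 3.75, so hosts of the same microRNAs differed in fold. The seed AAAGUGC of miR-17 and miR-20a comes from a single host, MIR17HG. let-7 is a family that restrains growth genes, miR-9 and miR-137 are microRNAs of neural progenitors and neurons, and miR-17 is a driver of proliferation. Another 47 hosts had no promoter peak and 12 start near a coding gene.

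snoRNA host genes are lncRNAs whose introns hold snoRNAs, the guides of ribosomal RNA modification, and their promoters are active in growing cells. Of 17 that could be counted, 12 had a promoter peak, with folds from 3.00 to 17.9 and a median of 6.03. SNHG21 stood highest with a fold of 17.9 and 120 fragments (99.5 to 143) at 33 bp upstream. The others were SNHG11 (8.61), SNHG25 (7.44), SNHG32 (6.81), SNHG17 (6.40), SNHG30 (6.40), SNHG8 (5.67), SNHG16 (5.50), SNHG29 (4.18), SNHG6 (3.99), SNHG7 (3.73) and SNHG26 (3.00). Their summits lay 17 bp to 642 bp from the start, so none was close to the edge of the window. SNHG12, SNHG14, SNHG15, SNHG27 and SNHG28 had no promoter peak, and 11 more lie near a coding start. The high share of bound snoRNA hosts thus came with folds near the median of the set, SNHG21 excepted.

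RefSeq promoters were searched for TAATCC and TAATCT, on either strand. They run from 250 bases before to 50 after the gene start. Of the 13817 lncRNA genes counted above, 1666 had a RefSeq promoter under the same symbol with its start within 200 bp. At least 1 motif was present in 24.6% (20.4% to 29.3%) of the 354 promoters with a peak and in 17.4% (15.4% to 19.5%) of the 1312 without. Among the 81 promoters with a peak of fold 10 or more it was present in 43.2% (33.0% to 54.1%). Over all 35116 RefSeq promoters the share was 12.8%, and at coding genes it was 10.6% with a peak and 10.3% without. For TAATCC alone the shares were 16.1% of bound lncRNA promoters and 6.36% of all promoters.

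At the summit itself, 101 bases could be read for 232 of the 2184 peaks, those whose summit lies inside a RefSeq promoter. A motif was present in 62 of them, 26.7% (21.4% to 32.8%), against 11.0% (9.93% to 12.2%) of 2933 coding promoter peaks, 4.54% of all windows of this length in RefSeq promoters and 5.99% of those in lncRNA promoters without a peak. The nearest motif lay within 25 bases of the summit in 50 of the 62 (80.6%, 69.1% to 88.6%), with a median distance of 11.0 bases. At coding promoter peaks the median distance was 10.5 bases. Motif and fold went together. The share of peaks with a motif was 10.3% (5.70% to 17.9%) at a fold under 5, 23.5% at 5 to 10, 51.2% (36.5% to 65.7%) at 10 to 20 and 12 of 13 at 20 or more. The sequence could be read at only 13 of the 120 lncRNA promoter peaks with a fold of at least 20. Of those 13, 5 are FAM138 copies, and 7 of the other 8 had a motif. The exception was LINC02275, with a fold of 25.9 and 0 motifs. The median fold was 4.98 (4.62 to 5.50) for the 170 peaks without a motif, 10.5 (7.28 to 12.9) for the 47 with 1 and 17.3 (5.64 to 31.4) for the 15 with 2 or more. Without the FAM138 copies the last median was 6.55 over 10 peaks, of which 3 reached a fold of 10. The folds of these 10 peaks ran from 3.11 to 47.2. They are thus too few and too spread to show whether fold changes from 1 motif to 2 or more outside this family. The 10 list genes whose summit could be read, SNHG21 and MIR1915HG included, had a motif in 0 cases.

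**Figure D4:**
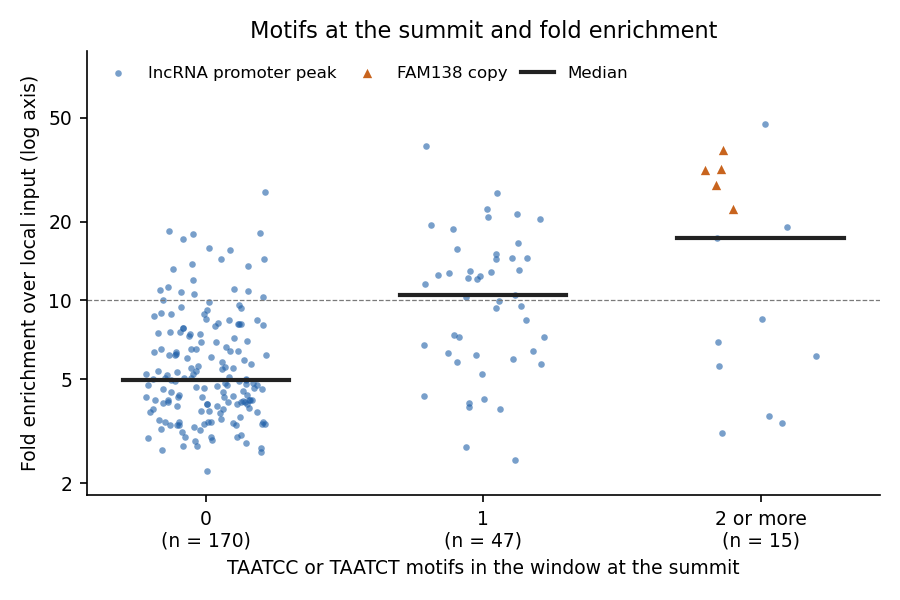
Fold enrichment over local input (log axis) of the 232 lncRNA promoter peaks with sequence at the summit, by the number of TAATCC or TAATCT motifs in 101 bases, with FAM138 copies as triangles and medians as bars. The medians are 4.98, 10.5 and 17.3, the dashed line is a fold of 10, and the group with 2 or more motifs holds all 5 FAM138 copies, without which its median is 6.55.

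Base composition moved with both. Motifs are rich in A and T, and of the 78 peaks with a summit window under 50% GC 52.6% had a motif, against 13.6% of the 154 with a higher GC. In all RefSeq promoter windows the shares were 9.90% and 2.05%. Within each class the median fold was higher with a motif. Under 50% GC the median fold was 11.6 (6.95 to 14.4) with a motif and 5.07 (4.29 to 7.19) without, and these intervals overlap slightly. At 50% GC or more it was 8.44 (5.84 to 22.5) with and 4.97 (4.58 to 5.60) without, and without the FAM138 copies it was 7.28 (4.21 to 12.9) with a motif, where 16 peaks remain and the intervals overlap. Coding promoter peaks showed medians of 10.1 (9.50 to 11.0) with a motif and 5.39 (5.29 to 5.51) without, close to those of lncRNA promoters. Among summits with a motif, 50.8% of coding promoter peaks and 53.2% of lncRNA promoter peaks reached a fold of 10, and among those without one 10.2% and 12.4%.

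How often a lncRNA gene had a peak, and how often that peak was strong, ran in opposite directions with the GC content of its promoter. A peak was present at 16.5% (13.8% to 19.7%) of 599 lncRNA promoters with a GC content under 45%, at 18.1% of those with 45 to 55%, at 25.2% with 55 to 65% and at 36.2% (30.0% to 42.9%) of the 210 with 65% or more. Among the genes with a peak, the share with a fold of at least 10 was 34.3% (25.7% to 44.1%), 25.5%, 15.3% and 13.2% (7.31% to 22.6%) in the same order, and the median of the highest folds 7.45, 5.64, 5.99 and 4.91. The share of promoters with a motif fell from 30.6% to 2.86% over these classes. GC-rich promoters were thus bound more often, and a smaller share of the bound ones had a strong peak. Counted over all promoters of a class, a fold of at least 10 was reached at 34 of 599, 24 of 520, 13 of 337 and 10 of 210. Strong peaks per promoter thus differed little among the classes, and the added peaks at GC-rich promoters were mostly weaker ones.

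**Figure D5:**
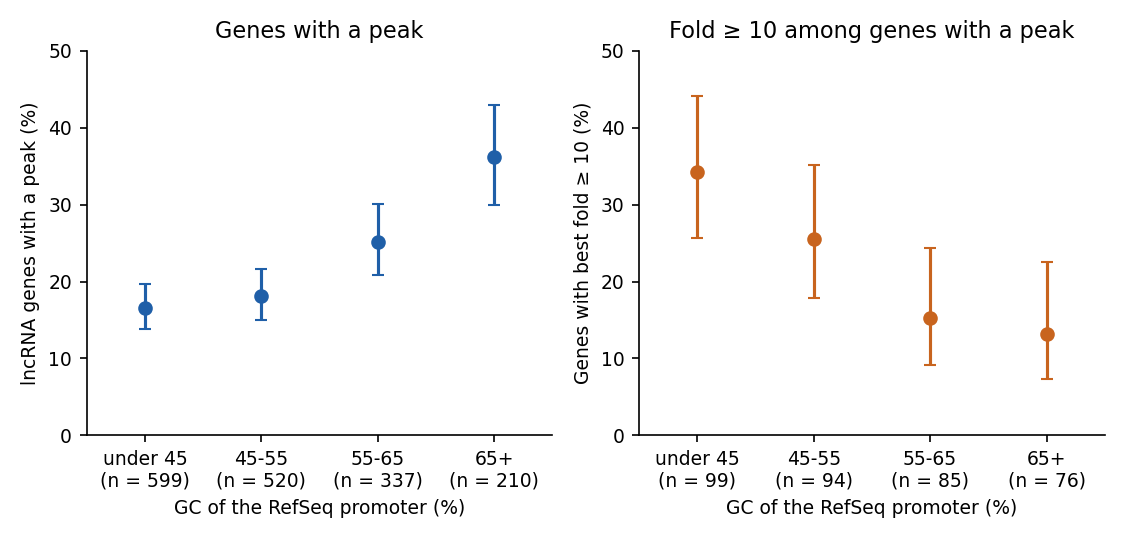
lncRNA genes by GC content of their RefSeq promoter (%), with the share that had a promoter peak (left, 1666 genes) and the share of those with a highest fold of at least 10 (right, 354 genes), each with its Wilson 95% interval. From the lowest to the highest class the first share goes from 16.5% to 36.2% and the second from 34.3% to 13.2%.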

How the data were processed

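OTX2 ChIP and input DNA of D283 tumorspheres were sequenced as 1 library each. Reads were aligned by the authors to GRCh38 (bowtie2 2.2.4). They called narrow peaks with MACS2 2.1.0.20140616 (q-value cutoff 0.05, 1 fragment kept per position, effective genome size 2700000000) and masked blacklisted regions. In the deposited list the pileup is a signal, the scaled fragment coverage at the summit. The deposited fold enrichment is the ratio of pileup plus 1 to local input plus 1, and a deposited −log10 q-value gives the strength of each peak call. Each fragment added 0.735 to the pileup, and fragments and local input were recovered from these columns (100% of pileups whole within 0.02 fragment). After duplicate removal the ChIP library had 2.72 times the depth of the input, whose fragments limit how precise a fold is.

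Gene starts were the GRCh38 positions recorded in GENCODE release 44 for 18702 lncRNA and 19881 protein-coding genes, and 295 protein-coding genes had none. Sequences were taken from RefSeq promoters and mature microRNAs (GRCh38.p14), which leave out chromosome 8. The genome sequence used here is of another build and was not combined with the peaks. No test was run, since there is 1 library pair and genes and peaks are not replicates. Genes were named by rule: the 15 official symbols with the highest folds, all listed genes with a promoter peak, and genes with at least 3 peaks. GC classes, motif windows at summits and the sequences shown were chosen after seeing the values. The members, lists and rules were chosen with earlier results of these data known. Assignment of peaks to starts was tested on simulated data. Alternatives were stricter peaks, other windows and starts, and leaving out chromosome 7, the FAM138 family or peaks near RefSeq coding starts. Tables were handled with pandas 2.3.3 in Python 3.11.15, intervals came from scipy 1.17.1 and numpy 2.4.6, and figures from matplotlib 3.10.9.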

Additional observations from a re-analysis of the deposited data

How the results depend on the processing

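No paired analysis was possible because ChIP and input were each sequenced as a single library. Of 41 alternatives, 26 stayed within the interval of the value given, or within 1.5 times for the number of peaks. The share of lncRNA genes with a promoter peak (15.2%) became 13.5% when peaks needed a −log10 q of 5, 9.42% when they needed a fold of 5, 9.90% with summits within 500 bp, 17.7% when 1 bp of the peak within 1 kb was enough and 18.0% with any transcript start. The number of peaks (2184) became 1286 with a fold of at least 5 and 1330 with summits within 500 bp. The density ratio (1.83) became 1.68 with a fold of at least 5, 2.2 with summits within 500 bp and 1.68 with any transcript start, and was not run for overlap of 1 bp, which has no summit. The median fold (5.80) became 6.52 at the stricter q, and the share at a fold of at least 10 (22.8%) became 26.4% at the same q and 24.8% with overlap of 1 bp. Stricter peaks and narrower or wider windows change these by construction. The share of bound lncRNA promoters with a motif (24.6%) became 16.1% for TAATCC alone and 43.2% for peaks of fold 10 or more. Leaving out the FAM138 family, or the peaks within 5 kb of a RefSeq coding start (1975 left, median fold 5.84), was chosen after seeing the data and kept the number of peaks within 1.5 times and the median fold within its interval. Without the FAM138 family the gene share, the share at a fold of at least 10 and the density ratio also stayed within theirs. The median fold of peaks with 2 or more motifs fell from 17.3 to 6.55, and that of peaks with a motif at 50% GC or more from 8.44 to 7.28. With 1 library pair, differences between peaks cannot be set against replicate error.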
